A study of Gallus gallus with 6 samples.

Results

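The regions described here were differentially methylated regions (DMRs) of the chick lens that overlapped a CpG island inside the body of a gene. A DMR is a run of nearby CG sites where the authors called a methylation difference between fiber and epithelial cells. A DMR was included when its annotations held a CpG island together with a 5′ UTR, exon or intron, and held no promoter, 3′ UTR or transcription end. This rule selected 490 of the 7621 DMRs, or 6.43%. It used position only, so the direction and the size of the methylation change were free to vary. Island annotations were found on chromosomes 7 to 23 only, 17 of the 34 chromosomes in the analysed table, although 680 of the 3657 DMRs on the other chromosomes were at least as dense in CG sites as the median island DMR in a gene body. The 490 DMRs are therefore 12.4% of the 3964 DMRs on the chromosomes with island annotations. Comparisons with other kinds of region were made on these same chromosomes, whereas shares of all DMRs cover the 34 chromosomes.

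The lenses came from White Leghorn chick embryos at embryonic day 13 with no treatment or genetic change, and were microdissected into fiber cells and epithelial cells. Whole genome bisulfite sequencing was carried out on 3 biological replicates of fiber cells and 3 of epithelial cells, with 25 lenses pooled for a replicate. The fiber fraction comprised peripheral and central fibers and the epithelial fraction comprised central and equatorial epithelium, so each level is an average over cells at several positions in the lens. The value analysed for each DMR was the deposited mCG level, an estimate of the share of reads with a methylated cytosine at CG sites. It was given as 1 mean for fiber cells and 1 mean for epithelial cells. The authors called DMRs with smoothing over 200 bp. Whether the levels are smoothed too was not stated in the sources used here.

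CpG islands are stretches rich in CG dinucleotides, and those that hold the start of a gene are mostly unmethylated in vertebrate cells. Islands that lie inside genes, away from the main start site, are more often methylated in a tissue-dependent way, and exons and introns of transcribed genes usually carry high CG methylation. Fiber cells of the lens arise from epithelial cells that leave the cell cycle, elongate, accumulate crystallins and finally lose their nuclei.

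Island DMRs in gene bodies mostly gained methylation in fiber cells. Of the 490 DMRs, 457 had a higher level in fiber cells than in epithelial cells and 33 had a lower one. The share of gains was 93.3% (95% Wilson interval 90.7 to 95.2%), beside 86.6% of all 7621 DMRs and 86.5% of the 3964 DMRs on the same chromosomes. Losses thus made up a small set here, and over all DMRs they made up 13.4%. Intervals of shares and medians throughout cover the number of DMRs only, since each level was a pooled mean with no replicate values, and DMRs near each other are not independent.

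The gains were modest in size and ended at middle levels. Their median change was +16.2 percentage points (95% interval of the median 15.8 to 16.7), with a median level of 50.3% in fiber cells and 29.8% in epithelial cells. The middle 50% of gains had changes between 13.3 and 19.8 points. The losses had a median change of −15.2 points (−18.0 to −13.4), with a median level of 21.9% in fiber cells and 37.0% in epithelial cells. Losses lay below the gains in fiber cells and above them in epithelial cells, an order that the split by direction itself favours. Single DMRs spanned changes from −30.7 to +36.6 points. Dividing the change by the authors' area statistic per site gives a rough standard error for 1 CG site, which had a median of 2.96 points and reached 4.59 points, so every DMR's change exceeded it, with a lowest absolute ratio of 3.97. That ratio follows from the calling of the DMRs and is not a separate test.

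**Figure D1:**
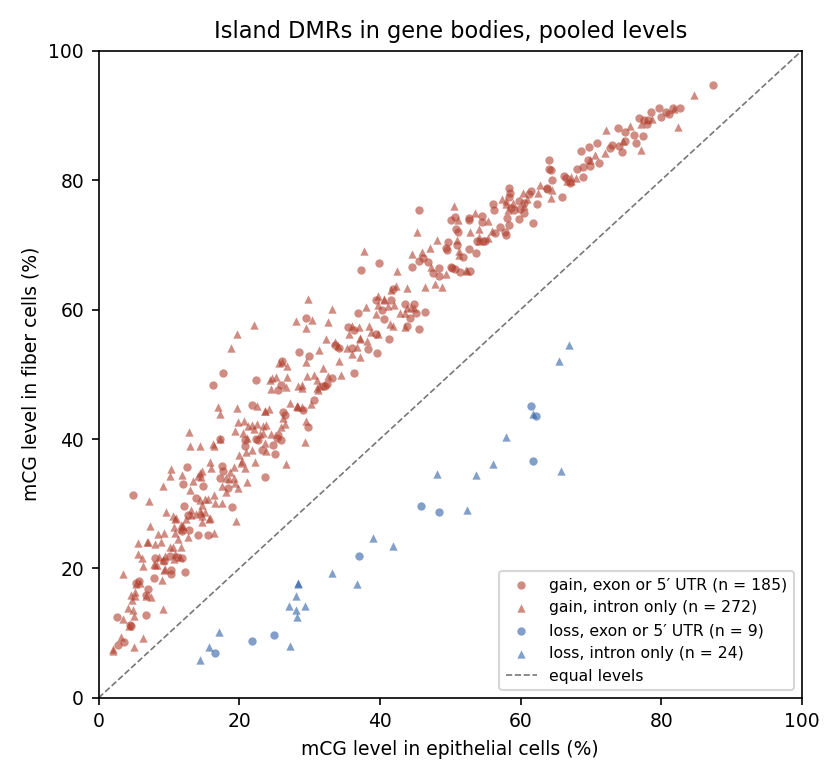
Pooled mCG level in fiber cells (vertical axis, %) against that in epithelial cells (horizontal axis, %) for the 490 island DMRs in gene bodies. Red points are the 457 gains and blue points the 33 losses, circles overlap an exon or 5′ UTR and triangles overlap introns only. Only called DMRs are shown, and those with small changes lie close to the dashed line of equal levels.

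Large changes were uncommon in these islands. A change of at least 20 percentage points was present in 113 DMRs (23.1%), beside 59.5% of all DMRs and 58.5% of those on the same chromosomes. Among the 499 gene-body DMRs in island shores, which are the flanks of islands, the share was 64.3%, and among the 1819 gene-body DMRs in neither island nor shore it was 76.1%. The median gain was +16.2 points in islands, +21.5 points in shores and +24.5 points (24.1 to 24.8) in the gene-body DMRs with neither. The rough standard error for 1 site had a median of 2.96 points in islands and 3.77 points in the gene-body DMRs with neither, and its part in the size of the called changes was not tested. Islands elsewhere resembled those in gene bodies in this measure, with a median gain of +15.4 points in 187 promoter island DMRs and +16.3 points in 251 island DMRs outside genes.

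The size of the change went down with CG density. Density, counted as listed CG sites in each 100 bp of DMR, is part of what defines an island, so its median of 15.7 in island DMRs in gene bodies beside 10.7 over the DMRs of the same chromosomes describes the rule. Across the 490 DMRs density and absolute change had a Pearson correlation of −0.58 and a Spearman correlation of −0.60, and in the 1819 DMRs with neither island nor shore the values were −0.53 and −0.57. These points come from the same 6 libraries, and the standard error of a site varied among them too, so the correlations are descriptions. At 8 to 12 sites per 100 bp the median gain was +20.9 points in islands, +21.8 in shores and +22.9 in DMRs with neither. At 12 to 16 sites it was +17.4 points in islands, +19.2 in shores and +19.4 in DMRs with neither. At 20 or more sites it was +12.1 points in islands, +15.1 in shores and +14.3 in DMRs with neither. In these classes of like density islands lay 1 to 3 points under the other gene-body DMRs. Below 8 sites per 100 bp, where only 10 island gains lay, the median gain was +22.7 points in islands, +25.9 in shores and +28.3 in DMRs with neither.

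**Figure D2:**
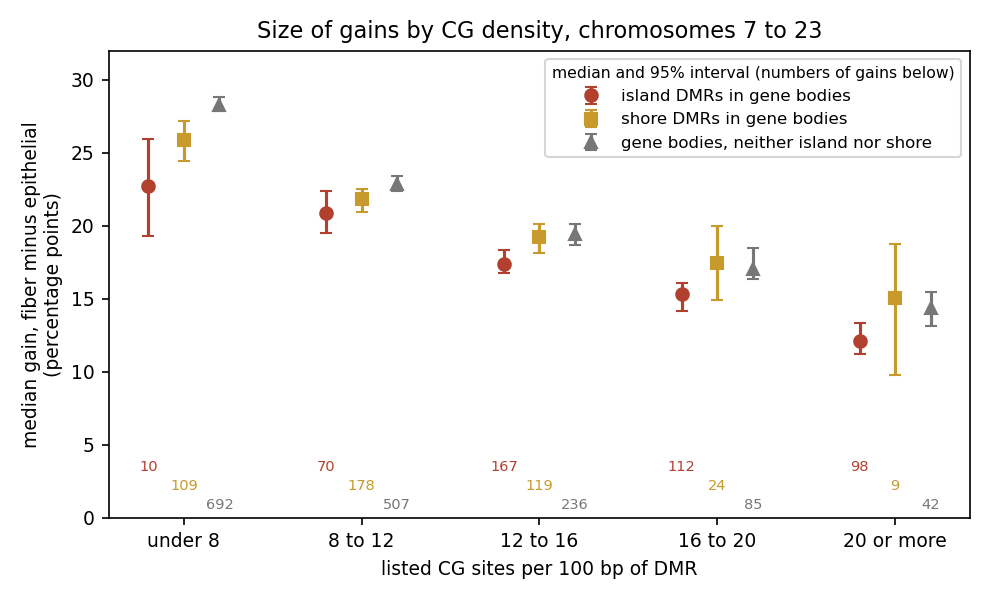
Median gain in mCG level (fiber minus epithelial, percentage points) of gene-body DMRs in 5 classes of CG density, for islands (circles), shores (squares) and neither (triangles), with 95% intervals of the median and the number of gains under each point. The medians go down from left to right in all 3 kinds of region, to +12.1 points in the densest islands.

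The starting level separated the DMRs further. In epithelial cells the median level over all 490 DMRs was 30.4% (28.3 to 34.5), and the median level in fiber cells was 48.4%. An epithelial level under 10% was present in 57 DMRs (11.6%, the same as the 11.6% of all DMRs). All of these 57 DMRs were gains, with a median change of +11.2 points and a median fiber level of 18.0%, so they stayed sparsely methylated in both cell types. At this level 884 of 886 DMRs of the whole table were gains too, as were 172 of 172 gene-body DMRs with neither. At the other end, 22 DMRs had an epithelial level of 75% or more, and these were all gains, with a median change of +9.85 points and a median fiber level of 89.6%. Over all DMRs at this level, 221 of 335 were gains and 114 were losses. Among the 48 gene-body DMRs with neither island nor shore at this level, 15 were gains and 33 were losses. Changes were largest from middle levels, with a median gain of +18.8 points in the 141 gains that started between 25 and 50%. Over all DMRs the largest median gain was from the same class, at +24.1 points. In gene-body DMRs with neither it was +26.1 points from 10 to 25% and +25.6 points from 25 to 50%.

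Island DMRs in gene bodies that were already well methylated in epithelial cells gained further methylation in fiber cells. At an epithelial level of 50% or more, 126 of 137 were gains (92.0%, Wilson interval 86.2 to 95.5%). Over all DMRs, gains were 1026 of the 1513 that started between 50 and 75%, and 221 of the 335 that started at 75% or more. At 50% or more, 25 of 29 promoter island DMRs were gains (86.2%, 69.4 to 94.5%), and 35 of 53 island DMRs outside genes were (66.0%). In the same class of level, 72 of 110 shore DMRs in gene bodies were gains (65.5%), and 216 of 390 gene-body DMRs with neither were (55.4%, 50.4 to 60.2%). With only DMRs of 12 or more sites per 100 bp, 118 of 128 islands in gene bodies were gains (92.2%, 86.2 to 95.7%), 39 of 46 shores (84.8%) and 93 of 121 DMRs with neither (76.9%, 68.6 to 83.5%). The interval of the shores overlapped that of the islands in gene bodies. That of the DMRs with neither did not, but DMRs are not independent, so this is not a test of a difference. Of such dense islands elsewhere, 22 of 26 in promoters were gains (84.6%, 66.5 to 93.9%), an interval that overlapped that of islands in gene bodies, and 31 of 46 outside genes were gains (67.4%). Below an epithelial level of 50% the kinds of gene-body region were close, with gains in 331 of 353 islands (93.8%) and 1346 of 1429 DMRs with neither (94.2%). No test was run on these shares, and a split by epithelial level uses a value from which the change itself is computed. At 50% or more, islands and DMRs with neither also differed in their share of exonic DMRs, as given below.

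**Figure D3:**
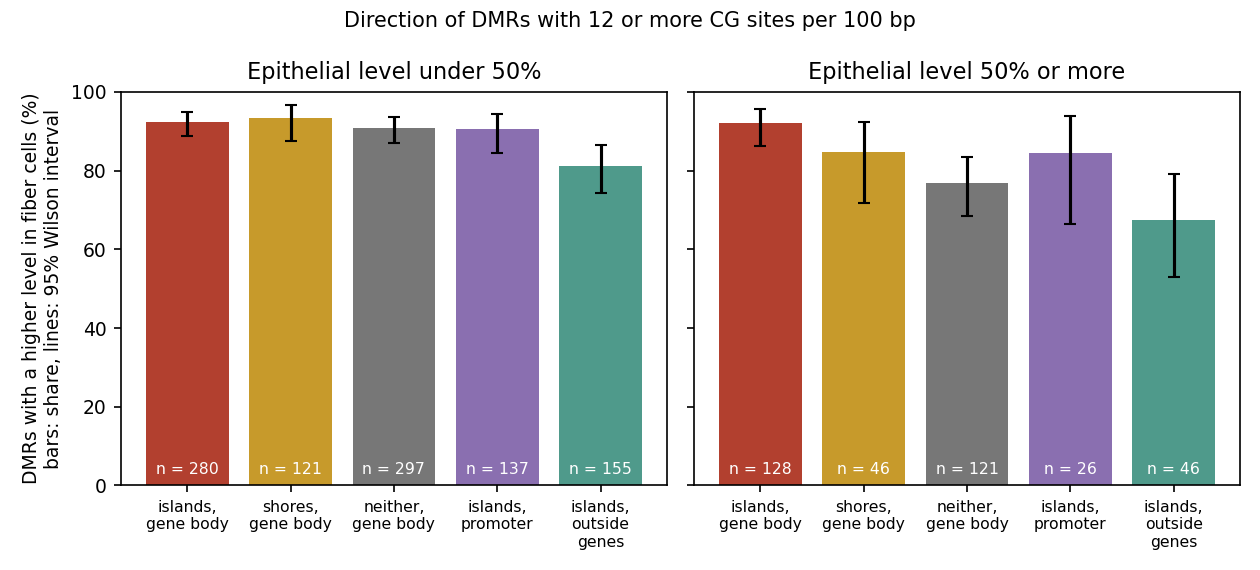
Share of DMRs with a higher mCG level in fiber cells (vertical axis, %) among DMRs with 12 or more CG sites per 100 bp, at an epithelial level under 50% (left) and of 50% or more (right), with 95% Wilson intervals. On the right, islands in gene bodies stand at 92.2%, shores at 84.8%, gene-body DMRs with neither at 76.9%, promoter islands at 84.6% and islands outside genes at 67.4%.

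A minority of the island DMRs had levels on opposite sides of 50% in the 2 cell types. In 249 DMRs (50.8%) the level was under 50% in both cell types, beside 43.3% of all DMRs and 45.6% on the same chromosomes. In 128 DMRs (26.1%) it was 50% or more in both, beside 17.1% of all DMRs. The level was 50% or more in fiber cells alone in 104 DMRs (21.2%), beside 32.5% of all DMRs. Those 104 were among 331 gains that started under 50%. It was 50% or more in epithelial cells alone in 9 DMRs (1.84%), beside 7.19%.

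Among these called DMRs, those touching exons were methylated more highly in both cell types than those in introns only. Islands without a called change were not covered. An exon or 5′ UTR was overlapped by 194 DMRs and introns only by the other 296. Gains in exonic islands had median levels of 66.0% in fiber cells and 45.6% in epithelial cells (39.9 to 50.7), with a median change of +15.6 points. Gains in intron-only islands had median levels of 43.5% in fiber cells and 23.7% in epithelial cells (20.9 to 26.8), with a median change of +16.6 points. Levels of gains were thus over 20 points higher in exonic than in intron-only island DMRs while the changes were close. In gene-body DMRs with neither island nor shore the same order was seen with a smaller gap, with median epithelial levels of gains of 33.0% in exons (29.4 to 36.4) and 24.2% in introns (22.8 to 25.7). An epithelial level of 50% or more was present in 86 of the 194 exonic islands (44.3%) and 51 of the 296 intron-only islands (17.2%). Gains made up 83 of those 86 and 43 of those 51. Among DMRs with neither at that level, 77 of 110 exonic ones (70%) and 139 of 280 intron-only ones (49.6%) were gains. Exonic DMRs were thus 86 of the 137 islands and 110 of the 390 DMRs with neither at that level. The part of exons in the difference in gains was not tested.

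Overlap with a shore went with lower density and larger gains. The 270 DMRs that ran from the island into its shore had a median gain of +17.5 points and 14.3 sites per 100 bp, and 257 were gains (95.2%). The 220 DMRs with no shore had a median gain of +14.5 points and 18.5 sites per 100 bp, and 200 were gains (90.9%). Repeats were overlapped by 14 DMRs, all gains, beside 93.3% gains in the whole set and 86.6% over all DMRs. The share among all DMRs that overlap repeats is not given here. No DMR overlapped an annotated transcription start, which the exclusion of promoters already favours.

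The 490 DMRs lay in 332 genes, of which 284 had a symbol. In 88 genes there were at least 2 island DMRs, and in 81 of these (92.0%, Wilson interval 84.5 to 96.1%) all had the same direction, with gains in 77 and losses in 4. The remaining 7 genes held both directions. The excess of gains over the whole set already places the share of genes with 1 direction high, so it does not show a link within genes. Neighbouring island DMRs less than 1 kb apart shared a direction in 54 of 56 pairs (96.4%), a share that the excess of gains already places high. The same genes held 834 other DMRs outside the set, of which 770 were gains (92.3%, beside 86.5% of all DMRs on the same chromosomes). The 3 genes with the most island DMRs, CASZ1, AHDC1 and CXXC5, held 39 of the 490.

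CASZ1, which encodes a zinc finger transcription factor, had the most island DMRs. All 15 were gains, spread over 66.8 kb of chromosome 21, with changes from +5.25 to +29.9 points and an SD over the DMRs of 7.24 points. The largest gain was at an exon-intron boundary from 3874858 to 3875185 (galGal6), with 75.4% in fiber cells and 45.5% in epithelial cells. Just before it, the exonic DMR from 3874565 to 3874690 had 90.5% in fiber cells and 80.7% in epithelial cells. The most sparsely methylated one, in an intron from 3935876 to 3936044, had 7.24% in fiber cells and 1.99% in epithelial cells. Islands of this gene thus covered nearly the whole scale of levels, and every one of them was higher in fiber cells. The 38 other DMRs of CASZ1 were gains as well, with a mean change of +21.0 points.

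AHDC1, which encodes an AT-hook DNA-binding protein, had 14 island DMRs over 40.3 kb of chromosome 23, all gains, with a mean of +17.0 ± 4.84 points (SD over DMRs). The largest gain, in an intron from 2202231 to 2202398, had 41.1% in fiber cells and 12.9% in epithelial cells. The longest of them ran from 2189169 to 2190163 with 146 CG sites and had 25.4% in fiber cells and 10.9% in epithelial cells. Island DMRs made up most of the 17 DMRs of this gene, whereas in CASZ1 they were 15 of 53. CXXC5, whose product has a CXXC zinc finger of the kind that binds unmethylated CpG, had 10 island DMRs within 18.6 kb of chromosome 13. All of them were intronic gains, with a mean of +16.7 ± 3.92 points, and their levels ran from 18.2 to 87.7% in fiber cells and from 9.06 to 72.1% in epithelial cells.

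**Figure D4:**
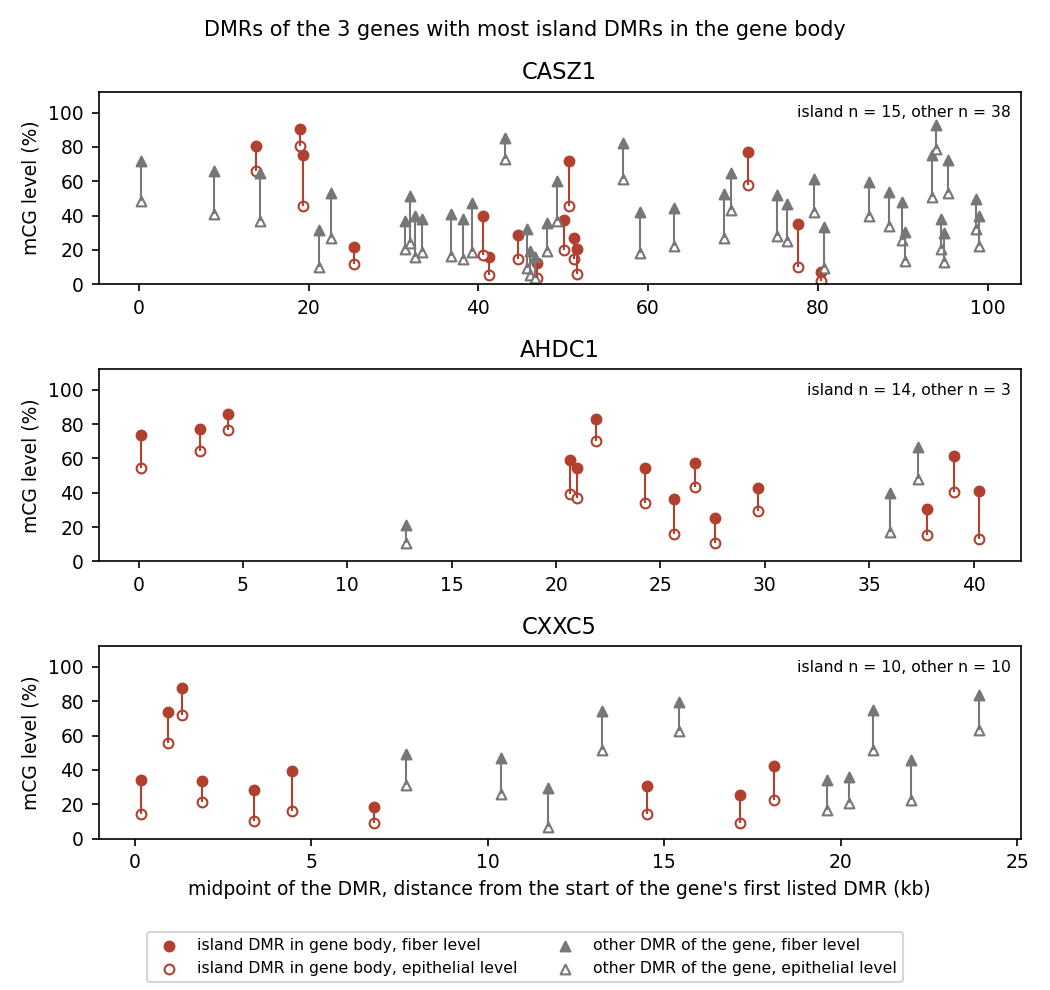
mCG level (vertical axis, %) of each DMR of CASZ1, AHDC1 and CXXC5 against the distance in kb of its midpoint from the start of the gene's first listed DMR. Filled symbols are fiber levels, open symbols epithelial levels, red circles island DMRs in the gene body and grey triangles the other DMRs of the gene, and in each of them the fiber level lies above the epithelial level.

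Further genes with 5 or 6 island DMRs were also gains in nearly all of them. FOXP1, a forkhead transcription factor gene, had 6 intronic gains over 95.7 kb of chromosome 12 with a mean of +21.3 points, and its 43 other DMRs were gains. SNED1, which encodes a secreted matrix protein, had 6 gains within 13.4 kb of chromosome 9, all touching exons, with a mean of +19.9 points. The zinc finger gene ZNF609 had 6 gains with a mean of +19.4 points, and MSI2, which encodes an RNA-binding protein, had 5 with a mean of +19.1 points. FGFR1, the gene of a fibroblast growth factor receptor, had 5 gains within 8.94 kb of chromosome 22, and they were alike in size, from +15.5 to +20.4 points. Their levels were not alike, since they ran from 30.7 to 77.4% in fiber cells and from 14.4 to 58.3% in epithelial cells.

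The authors' area statistic is a sum over CG sites, so the gains that it ranked highest were long by construction. Those of SNED1 ran from 5060180 to 5062649 with 253 CG sites, at 49.1% in fiber cells and 22.4% in epithelial cells, and from 5063595 to 5065892 with 271 sites, at 45.2% in fiber cells and 21.9% in epithelial cells. In AATK, a kinase gene on chromosome 18, an exonic DMR from 9292849 to 9293824 had 58.6% in fiber cells and 29.5% in epithelial cells. The longest of the set covered 3406 bp of PCDHAC1, a protocadherin alpha gene on chromosome 13, from 1403664 to 1407069, with 50.2% in fiber cells and 17.7% in epithelial cells. This gene belongs to a cluster of similar genes, and whether reads of its relatives were aligned there was not tested. Of the 56 island DMRs of 500 bp or more, 55 were gains, beside 93.3% of the whole set. The share among all DMRs of that length is not given here.

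The largest change of the set was in an intron of cNFI-A, the chick gene for the transcription factor nuclear factor I-A. From 27461996 to 27462903 on chromosome 8, the level was 56.2% in fiber cells and 19.6% in epithelial cells (+36.6 points). About 20 kb before it in the same gene, the DMR from 27441918 to 27442079 had 5.88% in fiber cells and 14.5% in epithelial cells (−8.57 points). The gene's other 4 island DMRs were gains. Large gains were also present in introns of SGIP1, an endocytic adaptor gene, with 57.7% in fiber cells and 22.1% in epithelial cells, and of EXD3, an exonuclease domain gene, with 54.0% in fiber cells and 18.8% in epithelial cells. OGDH, the gene of a 2-oxoglutarate dehydrogenase subunit of the citric acid cycle, had a DMR with 48.3% in fiber cells and 16.3% in epithelial cells.

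Losses were fewer and spread over 30 genes, with a median length of 162 bp beside 228 bp of the gains. By area statistic the strongest was in GATA5, which encodes a zinc finger transcription factor, from 8029298 to 8029906 on chromosome 20 with 126 CG sites across an exon and intron. Its level was 29.6% in fiber cells and 45.8% in epithelial cells (−16.1 points). An exonic DMR of MN1, a transcriptional coregulator gene, from 7809003 to 7809448 on chromosome 15, had 36.6% in fiber cells and 61.7% in epithelial cells (−25.1 points). The largest loss lay in an intron of PGM1, the gene of phosphoglucomutase 1, from 28220256 to 28220399 on chromosome 8, with 35.1% in fiber cells and 65.8% in epithelial cells (−30.7 points). A neighbouring DMR of PGM1 had 12.4% in fiber cells and 28.3% in epithelial cells, so both of its island DMRs were losses. ARHGAP26, a gene of a GTPase-activating protein, had a loss with 29.0% in fiber cells and 52.4% in epithelial cells. TNS1, which encodes a focal adhesion protein, had 36.1% in fiber cells and 56.0% in epithelial cells, and PMP22, a myelin protein gene, had 7.95% in fiber cells and 27.3% in epithelial cells.

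The level in fiber cells was under 10% in 6 of the losses, with the lowest values in cNFI-A and SOX2. Further losses with a large area statistic were in PLEKHA2, which encodes a phosphoinositide-binding protein, with 9.71% in fiber cells and 25.0% in epithelial cells, and at a place shared by DNER and TRIP12, with 14.2% in fiber cells and 27.1% in epithelial cells. Introns only were overlapped by 24 of the 33 losses (72.7%) and by 272 of the 457 gains (59.5%). Apart from the losses themselves the loss genes held 94 DMRs, of which 84 were gains and 10 losses. Without cNFI-A, which holds many of these, 53 of 61 were gains and 8 were losses, beside 86.5% gains over the same chromosomes.

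**Figure D5:**
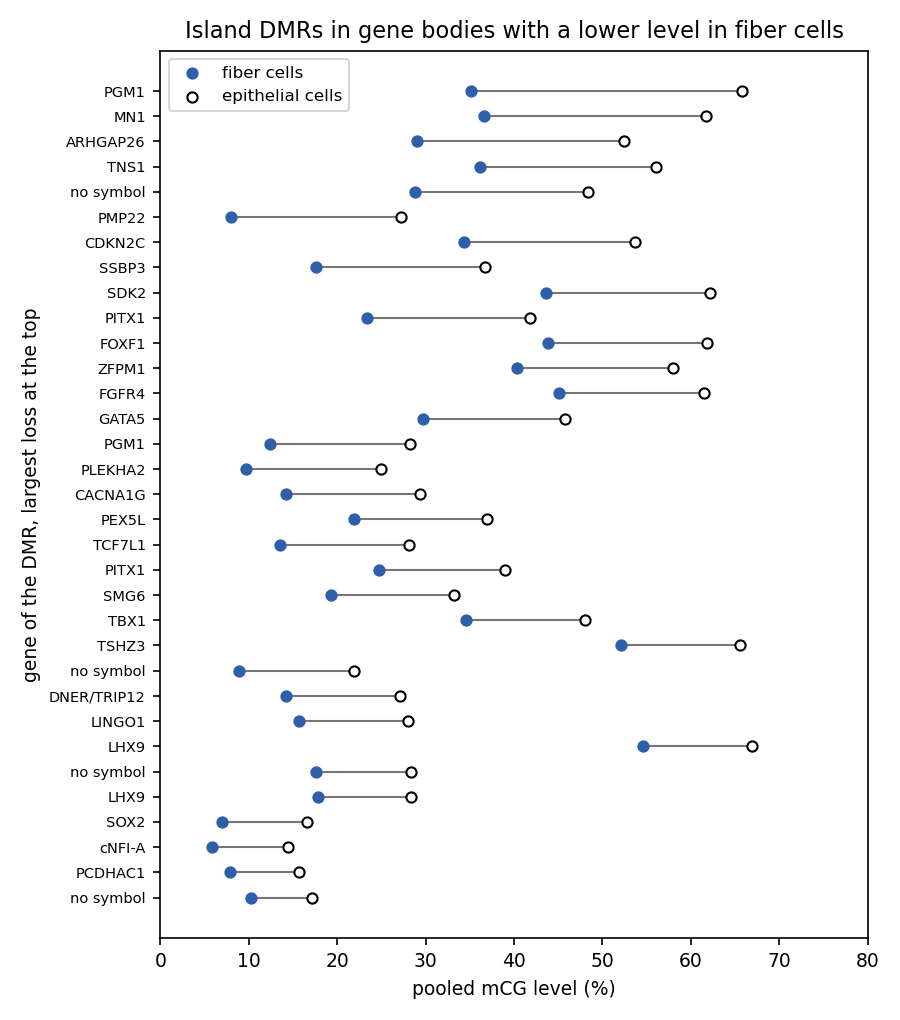
Pooled mCG level (horizontal axis, %) in fiber cells (filled) and epithelial cells (open) of the 33 island DMRs in gene bodies that were lower in fiber cells, 1 row per DMR with its gene and the largest loss at the top. Fiber levels run from 5.88 to 54.5% and epithelial levels from 14.5 to 66.9%.

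Developmental transcription factor genes held 9 of the 33 losses. Of the 42 such genes with any DMR on these chromosomes, 16 had island DMRs in the gene body, 43 in all, with 34 gains and 9 losses (20.9% losses). The 180 other DMRs of the listed genes had 14.4% losses, and the DMRs of the same chromosomes had 13.5%. Losses only were found in GATA5, LHX9, PITX1, FOXF1, SOX2 and TCF7L1, and gains only in 9 genes, among them CASZ1, FOXP1, RXRA, MAF, MAFK, PBX3 and TBX3. PITX1, a homeobox gene of hindlimb and pituitary development, had a pair of intronic losses on chromosome 13. That from 16316624 to 16316773 had 23.4% in fiber cells and 41.9% in epithelial cells, and that from 16316181 to 16316340 had 24.8% in fiber cells and 39.0% in epithelial cells. LHX9, a LIM homeobox gene, also had a pair of losses, with 54.5% in fiber cells against 66.9% in epithelial cells, and 17.8% in fiber cells against 28.4% in epithelial cells. FOXF1, a forkhead gene, had 43.9% in fiber cells and 61.8% in epithelial cells, and TCF7L1, a transcription factor gene of the Wnt pathway, had 13.5% in fiber cells and 28.1% in epithelial cells. With 15 of the 34 gains in CASZ1 alone, the split by genes was 9 with gains only, 6 with losses only and 1, TBX1, with both.

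Among genes known for roles in the lens, 7 of 14 with a DMR on these chromosomes had island DMRs in the gene body, 23 in all, with 22 gains, of which 15 were in CASZ1. The 64 other DMRs of the listed lens genes had 57 gains and 7 losses, and 86.5% of the DMRs on these chromosomes were gains. The single loss was in SOX2, a transcription factor gene needed for lens formation, in its exon from 17026247 to 17026510 on chromosome 9, with 6.94% in fiber cells and 16.5% in epithelial cells (−9.60 points). The other 2 DMRs of SOX2 were losses too. The gains included MAF, whose product activates crystallin genes, with an intronic DMR of 24.1% in fiber cells and 7.05% in epithelial cells (+17.0 points). CRYBB2, a beta-crystallin gene, had an intronic DMR that was highly methylated in both cell types, at 86.0% in fiber cells and 74.6% in epithelial cells. The Notch receptor genes differed in level, with 81.7% in fiber cells and 68.0% in epithelial cells at an exon of NOTCH2. The 3 intronic DMRs of NOTCH1 lay lower, at 42.3, 21.3 and 16.3% in fiber cells and 26.5, 9.17 and 5.19% in epithelial cells.

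Genes of chromatin regulators had 9 island DMRs in 7 genes, all gains. ASXL1, a Polycomb-associated gene, had 49.4% in fiber cells and 33.3% in epithelial cells. KDM2B, which encodes a histone demethylase with a CXXC finger, had 73.9% in fiber cells and 50.2% in epithelial cells. The other 63 DMRs of the listed chromatin genes had 55 gains and 8 losses.

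Genes of signalling pathways had 16 gains and 1 loss, in 9 of 27 genes. The 63 other DMRs of the listed signalling genes had 59 gains and 4 losses. The exon of IRS1, an insulin receptor substrate gene, had 18.6% in fiber cells and 7.93% in epithelial cells. FZD7, the gene of a Wnt receptor, had a pair of exonic gains, with 18.0% in fiber cells against 5.76% in epithelial cells, and 35.7% in fiber cells against 12.5% in epithelial cells. Among receptors of fibroblast growth factors, FGFR1 had 5 gains. The island loss of this list was a single DMR of FGFR4, with 45.1% in fiber cells and 61.5% in epithelial cells. The other DMR of FGFR4, in its promoter, was a gain of +14.4 points. Matrix and adhesion genes also had 16 gains and 1 loss, in 8 of 41 genes. The 72 other DMRs of the listed matrix genes had 66 gains and 6 losses. Next to SNED1 and PCDHAC1, the protocadherin gene PCDH1 had a large intronic gain, with 69.1% in fiber cells and 37.7% in epithelial cells. The single island loss of this list was a second DMR of PCDHAC1, with 7.86% in fiber cells and 15.7% in epithelial cells.

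Cytoskeletal genes had 11 gains and 1 loss, the loss being that of ARHGAP26, and their 99 other DMRs had 89 gains and 10 losses. Over the 12 island DMRs the median level was 55.6% in fiber cells and 45.4% in epithelial cells. Of the 3 strongest, 1 had 82.1% in fiber cells and 68.8% in epithelial cells at a place shared by the beta-tubulin gene TUBB and FLOT1. ARHGAP44, another gene of a GTPase-activating protein, had 89.7% in fiber cells and 76.9% in epithelial cells, and MYO18A, a myosin gene, had 77.0% in fiber cells and 57.3% in epithelial cells. Genes of channels and transporters had 19 gains and 1 loss, in 15 of 69 genes. The 160 other DMRs of these listed genes had 144 gains and 16 losses. The amino acid transporter genes SLC38A10 and SLC38A3 had 39.8% and 45.0% in fiber cells, and 20.8% and 29.0% in epithelial cells. The loss of this list was in CACNA1G, a calcium channel gene, with 14.2% in fiber cells and 29.3% in epithelial cells.

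Opposite directions within a gene could lie close together. In ARHGAP26 the loss was followed after 195 bp by a gain, from 18054023 to 18054147 on chromosome 13. In LINGO1, a gene of a neuronal membrane protein, 641 bp separated a gain of +21.3 points from a loss of −12.4 points. TBX1, a T-box transcription factor gene, had a loss with 34.6% in fiber cells and 48.1% in epithelial cells and, after 5220 bp, a gain with 40.7% in fiber cells and 25.5% in epithelial cells. PCDHAC1 and SMG6, a nonsense-mediated decay gene, held the other such neighbours within 10 kb. These were 5 of the 140 neighbouring pairs at that distance.

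Along the genome, the share of DMRs that were islands in gene bodies ran from 7.73% on chromosome 7 to 23.8% on chromosome 22 and 37.5% on chromosome 16, where 6 of only 16 DMRs qualified. On chromosomes 12, 14, 16, 17, 21 and 23 the set held no loss, and over all DMRs of each of these 84.9 to 100% were gains. Chromosome 8 held the most losses, 7 of 41, including those of LHX9, PGM1 and cNFI-A. Gains there were thus 82.9% of the set, beside 301 of all 348 DMRs of chromosome 8 (86.5%).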

How the data were processed

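The labels gave 3 replicates of fiber and 3 of epithelial cells. The authors trimmed bisulfite reads with Trimmomatic, aligned them to galGal6 with Bismark and called DMRs with DSS (smoothing over 200 bp, p threshold 1e-05, at least 50 bp and 3 CG sites, merging within 100 bp). Versions were not given in the sources used here. The authors deposited mCG levels as a fraction, pooled per cell type, an area statistic, which is a score summing Wald statistics over sites, and other columns with positions, site numbers, annotations and genes. The authors' own difference column was used only to check the change computed here. Depth is unknown from these values, so no level has an interval of its own, and calling by a p threshold keeps small changes only where the standard error is low. The study describes its island class as intergenic and shores as the 2 kb beside islands, whereas the DMRs here carry island and gene-body lines together, and no criterion for calling an island was given in the sources used here.

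From 13180 lines, 551 exact repeats were dropped and the rest joined by DMR number. Levels were converted to percent and the change was fiber minus epithelial. Wilson intervals and order-statistic intervals of medians at 95% replaced tests, since there were no replicate values. Gene identifiers, symbols and types are those of the deposited table. The DMRs, the 7 gene lists and the comparisons were chosen with earlier results of these data known, and 3 of the lists were trimmed of wrongly matched symbols afterwards. Genes named were, among those with a symbol, the 5 DMRs of largest absolute area statistic and the 5 of largest change in each direction, up to 10 genes with most DMRs, all lens genes, and up to 3 genes per other list. Other genes, among them the further transcription factor genes, the other loss genes of the lists and the genes with opposite neighbours, were named after their values were seen. Some genes that this rule selects are not reported here. The calculations were tested on simulated data and used Python 3.11.15, NumPy 2.4.6, pandas 2.3.3, SciPy 1.17.1 and matplotlib 3.10.9.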

Additional observations from a re-analysis of the deposited data

How the results depend on the processing

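No paired analysis was possible because each level was pooled over the replicates of a cell type, and for the same reason no replicate could be left out in turn. With only changes of at least 20 percentage points, the median gain was +22.7 points, the median of the 3 losses was −25.1 points, the share of gains was 97.3% and all 17 genes with several DMRs had 1 direction (100%). That cut selects on the change itself, so larger medians follow from it. Without DMRs that ran into a shore, the median gain was +14.5 points and 96.9% of 32 genes had 1 direction. The other 44 recomputed values stayed within the 95% interval of the value reported. These included leaving out repeats, weak area statistics, non-coding genes, neighbours within 10 kb and, chosen after seeing the data, chromosome 22 and the 3 genes with most DMRs. A minimum of 10 CG sites and leaving out transcription starts removed no DMR. Their values are counted among the 44 although they could not move.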
